A study of Mus musculus with 12 samples.

Results

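The mitochondrially encoded genes were all genes of the count table whose symbol begins with mt-, which gave 37 of 56860 named genes. They comprise 13 genes for mRNAs, 2 for ribosomal RNAs (mt-Rnr1 and mt-Rnr2) and 22 for transfer RNAs (the mt-T genes). All 37 matched the GENCODE annotation of the mitochondrial chromosome in build GRCm38, and that annotation holds no other gene there. The libraries came from primary oligodendrocytes (OLs) of C57BL/6J mice, bound with anti-O4 beads from the cortex at postnatal days 6 to 7 and differentiated in culture, whereas the labels give the tissue as medial prefrontal cortex. The cells received siEgr2, which targets Egr2, a zinc-finger transcription factor known from Schwann cell myelination, or siNC, a scrambled control, and were collected after 48 h. Each treatment had 6 libraries. Nothing says that the libraries of a group came from separate cultures, so p-values measure the spread between these samples, which may be technical. The question was how transcripts of the OLs differ when Egr2 is reduced.

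Mitochondria keep a small circular genome of their own, inherited from their bacterial ancestor. Its strands are transcribed into long RNAs from which the tRNAs are cut out at their ends, and this cutting releases the rRNAs and mRNAs that lie between them. The mRNAs encode membrane subunits of respiratory complexes I, III and IV and of ATP synthase, and all the other subunits come from nuclear genes. In mammals most mitochondrial mRNAs carry poly(A) tails, the rRNAs end in only a few adenines, and human ND6 has little or no tail. OLs depend on mitochondrial ATP while they build myelin.

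In the annotation, 28 members lay on the plus strand of the chromosome (12 mRNA, 2 rRNA and 14 tRNA genes), and mt-Nd6 and 8 tRNA genes lay on the minus strand. Of the 36 neighbouring pairs of genes, 21 had no base between them, 9 of which overlapped. The tRNA genes were 59 to 75 bases long, against a read length of 50 bases. The sequences below, taken from GENCODE transcripts of build GRCm38 and written 5′ to 3′ on the strand of the gene, are the 3 tRNAs with most counts and those ahead of each rRNA, with the anticodon in capitals. mt-Tl1 (tRNA-Leu for UUR codons, chrM:2676-2750, plus strand) lies between mt-Rnr2 and mt-Nd1, mt-Te (tRNA-Glu, chrM:14071-14139, minus strand) between mt-Nd6 and mt-Cytb, and mt-Tw (tRNA-Trp, chrM:4950-5016, plus strand) after mt-Nd2. mt-Tf (tRNA-Phe, chrM:1-68, plus strand) precedes mt-Rnr1, and mt-Tv (tRNA-Val, chrM:1025-1093, plus strand) lies between both rRNA genes.
mt-Tl1: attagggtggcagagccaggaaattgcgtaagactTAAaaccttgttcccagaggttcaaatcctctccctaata
mt-Te: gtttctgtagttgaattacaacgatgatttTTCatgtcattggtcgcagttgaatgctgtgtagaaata
mt-Tw: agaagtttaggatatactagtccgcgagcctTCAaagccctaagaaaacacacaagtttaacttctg
mt-Tf: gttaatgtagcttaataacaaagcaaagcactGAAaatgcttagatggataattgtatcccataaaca
mt-Tv: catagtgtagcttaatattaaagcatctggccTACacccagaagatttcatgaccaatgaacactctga

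A pair of mRNA overlaps matter for reading the counts below. The last 43 bases of mt-Atp8 (chrM:7766-7969, plus strand) are also the first bases of mt-Atp6, and the last 14 bases of mt-Nd5 (its final 60 bases are at chrM:13506-13565, plus strand) are shared with mt-Nd6 on the opposite strand. Shared bases are in capitals. Whether the counting used strand is not given in the sources used here, so reads over the mt-Nd5 and mt-Nd6 overlap cannot be told apart.
mt-Atp8: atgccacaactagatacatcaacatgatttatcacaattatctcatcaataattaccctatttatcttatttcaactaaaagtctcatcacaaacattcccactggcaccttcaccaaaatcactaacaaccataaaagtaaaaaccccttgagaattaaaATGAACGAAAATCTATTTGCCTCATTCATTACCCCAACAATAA
mt-Nd5 end: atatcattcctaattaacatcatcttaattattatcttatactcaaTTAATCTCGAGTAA

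The libraries held 28682946 to 39383014 counts in siNC (median 31277547) and 8034251 to 16683677 in siEgr2 (median 13932447), so the siEgr2 values rest on fewer reads. Egr2 itself was at 5.35 ± 1.27 CPM (counts scaled to a common library total; SD, n = 6) in siNC and 3.77 ± 1.01 CPM in siEgr2, a log2 fold change of -0.51 (SE 0.21) that did not pass the test (edgeR adjusted p = 0.0981). The cytosolic 18S rRNA, counted as Rn18s-rs5, took 0.142% to 1.05% of the counts in siNC and 10.5% to 16.5% in siEgr2, and the groups did not overlap. The 10 oligodendrocyte markers summed to 9664 to 10656 CPM in siNC and 9675 to 10017 CPM in siEgr2, with none called. The 8 astrocyte markers were nearly as abundant in siNC, at 8119 to 8814 CPM, and lower in siEgr2, at 5206 to 5870 CPM. Of the 8, 5 were called lower, by a rule defined with the tests below that called 5.08% of all genes lower and 2.63% higher, among them the glutamate transporter Slc1a3 at -0.85 and the water channel Aqp4 at -0.80 on the log2 scale (edgeR adjusted p = 4.66e-10 and 1.95e-09). Of 5 precursor markers 2 were called higher (Pdgfra and Cspg4, both 0.56). Of 7 tested neuronal markers 1 was called lower (Stmn2, -0.91), but the median of the 7 was 0.23. By the adjusted p alone the neuronal marker Syt1 was higher (0.31) and Tubb3 lower (-0.27). Of 7 mural and fibroblast markers 3 were called lower (Rgs5, Acta2 and Pdgfrb, -0.78 to -0.56). Of 4 tested microglial markers none was called, all 8 of them summing to 4.82 to 9.38 CPM in siNC and 3.80 to 7.17 CPM in siEgr2. The cultures therefore held astrocyte transcripts that moved with the treatment, and fewer cells of a type cannot be told apart from less RNA per cell.

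As a share of all counts in a library, the 13 mRNAs together took 2.94% to 3.46% in siNC (median 3.19%) and 2.24% to 2.90% in siEgr2 (median 2.64%), without overlap. When the mitochondrial genes and the RNAs without a poly(A) tail, such as Rn18s-rs5, were left out of the denominator, the mRNA share was 3.05% to 3.59% against 2.77% to 3.36%, and the groups overlapped. The rRNAs together moved the other way, from 0.0428% to 0.0631% of the counts in siNC up to 0.109% to 0.156% in siEgr2. They made up 1.43% to 1.82% of the mitochondrial counts in siNC and 3.92% to 5.68% in siEgr2. The 22 tRNA genes took only 0.00249% to 0.00299% in siNC and 0.00223% to 0.00287% in siEgr2, and these ranges overlapped. The changes of single genes below come from an edgeR quasi-likelihood test of 16600 genes on CPM scaled by TMM, a scaling that is little affected by a few abundant genes. A gene was called when its adjusted p was under 0.05 and its absolute log2 fold change over 0.5.

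Both mitochondrial rRNAs were higher after siEgr2, with the largest changes of the 26 members tested. mt-Rnr1 (chrM:70-1024), the 12S rRNA of the small mitochondrial ribosomal subunit, was at 129 CPM in the lowest siNC library, 145 CPM at the median and 160 CPM in the highest, against 364, 519 and 579 CPM in siEgr2. The lowest siEgr2 library lay well above the highest siNC library, and the log2 fold change was 1.77 (SE 0.12, edgeR adjusted p = 1.88e-06), or 3.4-fold. mt-Rnr2 (chrM:1094-2675), the 16S rRNA of the large subunit that forms the peptide bonds, was at 269, 343 and 436 CPM in siNC and 754, 984 and 1093 CPM in siEgr2 (lowest, median and highest). Its groups did not overlap either, with a log2 fold change of 1.45 (SE 0.14, edgeR adjusted p = 2.83e-05), or 2.7-fold. Both rRNAs were thus called higher, against 2.63% of all genes tested, or 7.72% called in either direction.

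**Figure D1:**
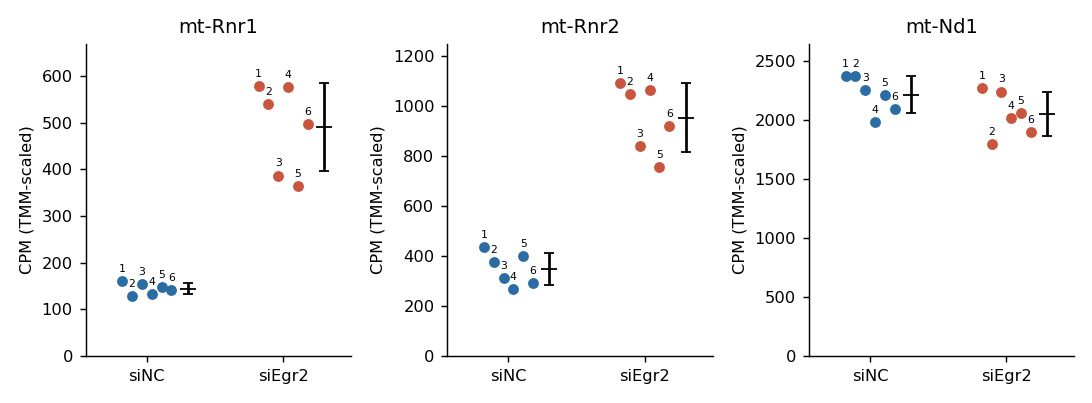
TMM-scaled CPM of mt-Rnr1, mt-Rnr2 and the neighbouring mRNA mt-Nd1 in each library (points, numbered by replicate) of siNC and siEgr2, with the mean ± SD (n = 6) as bars. Both rRNAs are above every siNC library in all 6 siEgr2 libraries, while the mt-Nd1 values of the groups, 1985 to 2378 and 1802 to 2277 CPM, overlap.

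The next genes after mt-Rnr2, mt-Tl1 and mt-Nd1, did not pass the test. mt-Tl1 begins at the base after mt-Rnr2, and a site within its gene is known to bind Mterf1, a transcription termination factor. It was at 14.3, 15.5 and 18.2 CPM in siNC (lowest, median and highest) and 12.7, 17.3 and 19.1 CPM in siEgr2, with a log2 fold change of 0.088 (SE 0.10, edgeR adjusted p = 0.608). The next gene, mt-Nd1, a core membrane subunit of complex I, was at 1985, 2236 and 2378 CPM in siNC and 1802, 2040 and 2277 CPM in siEgr2, with a log2 fold change of -0.11 (SE 0.061, edgeR adjusted p = 0.226). Within each library, mt-Rnr2 counts were 0.136 to 0.183 of those of mt-Nd1 in siNC and 0.366 to 0.581 of them in siEgr2. This ratio does not depend on the scaling. It was 2.99-fold higher in siEgr2, a mean log2 difference of 1.58 (exact permutation over all assignments of the libraries, two-sided p = 0.00216, the smallest this design can give, adjusted over 3 ratios to 0.00649), and all 6 siEgr2 libraries were above all siNC libraries.

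mt-Rnr1 rose by more than mt-Rnr2 on average, but the test of that difference depended on single libraries. Counts of mt-Rnr2 were 2.02 to 2.89 times those of mt-Rnr1 in siNC and 1.84 to 2.17 times in siEgr2, and the ranges overlapped. The mean log2 ratio of mt-Rnr1 to mt-Rnr2 was higher in siEgr2 by 0.28 (two-sided exact permutation test, p = 0.0281, adjusted over 3 ratios to 0.0422). Without siEgr2 replicate 1, 2, 4 or 6 the exact permutation p was 0.0649, 0.0519, 0.0693 and 0.0693. Within siNC the ratio of mt-Rnr2 to mt-Rnr1 fell into separate ranges, 2.02 to 2.07 in replicates 3, 4 and 6 and 2.71 to 2.89 in replicates 1, 2 and 5. Without replicates 3, 4 and 6 of siNC, a choice made after these values were seen, mt-Rnr1 was higher by 1.75 and mt-Rnr2 by 1.23 on the log2 scale. No test is given for this, because mt-Rnr2 was itself lower in the libraries left out (269 to 313 CPM) than in replicates 1, 2 and 5 (374 to 436 CPM). The mean log2 ratio of mt-Rnr1 to mt-Rnr2 was then higher in siEgr2 by 0.50, given with no test because the libraries left out differ in this same ratio.

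The mitochondrial rRNAs moved together with cytosolic RNAs that carry no poly(A) tail. Of 10 such RNAs examined, 7 passed the filter on low counts. Rn7s6 had 0 counts in every siNC library and 7.94 ± 2.73 CPM in siEgr2, so it passed only through siEgr2 and no fold is given. Rn18s-rs5, Rn7sk, Rn7s1 and Rn7s2 were called higher, by 3.38 to 4.50 on the log2 scale, where 2.63% of all genes were called higher. Rn18s-rs5 rose by 4.50 (SE 0.45, edgeR adjusted p = 5.62e-05), from 6457 ± 3072 to 146212 ± 31996 CPM (SD, n = 6). Rn7sk, a regulator of RNA polymerase II elongation, rose by 3.38, and Rn7s1 and Rn7s2, which encode RNA of the signal recognition particle, rose by 3.95 each, although reads of these near-identical genes could be split between them. Rpph1, the RNA of RNase P, was at 1.08 ± 0.644 CPM in siNC and 17.1 ± 5.26 CPM in siEgr2. Rmrp, the RNA of RNase MRP, was at 0.937 ± 0.759 CPM in siNC and 6.96 ± 2.95 CPM in siEgr2. Each had only 2 counts in its lowest library. Like Rn7s6, both passed the filter only through siEgr2, so no fold is given. Among the mitochondrial members, mt-Nd6, whose human counterpart has little or no tail, was at -0.089 (edgeR adjusted p = 0.294). The part of the shift in RNAs without a tail in the rRNA result was not tested.

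Within a group, the share of counts on Rn18s-rs5 and the level of the mitochondrial rRNAs gave 4 relations, none of which passed. In siEgr2, Pearson's r was 0.790 for mt-Rnr1 (exact permutation p = 0.0889, adjusted 0.333) and 0.660 for mt-Rnr2 (exact permutation p = 0.167, adjusted 0.333), with Spearman's rho of 0.429 for both (exact permutation p = 0.419, adjusted 0.497). Without the 2 libraries farthest from the median share, r was -0.40 and -0.64 over the 4 that remained, which are too few to read a relation from. In siNC, r was 0.545 for mt-Rnr1 and -0.46 for mt-Rnr2 (exact permutation p = 0.278 and 0.376, adjusted 0.370 and 0.376), with rho of 0.371 and -0.54 (exact permutation p = 0.497 and 0.297, both adjusted to 0.497) and r of -0.22 and -0.52 without the 2 libraries farthest from the median there.

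None of the 13 mRNAs was called, against 5.08% of all genes called lower and 2.63% called higher. At an adjusted p under 0.05 alone, 3 of 13 were lower and 0 higher (4 of 13 at an unadjusted p under 0.05), where 11.3% of all genes were lower and 8.57% higher by that rule (19.9% in either direction). The median log2 fold change over the 13 was -0.076, with 9 values below zero and 4 above, beside 0.0046 for all genes tested. The groups did not overlap for 2 of the 13, mt-Co1 and mt-Cytb, both lower in siEgr2, where 11.2% of all genes did not overlap in either direction.

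**Figure D2:**
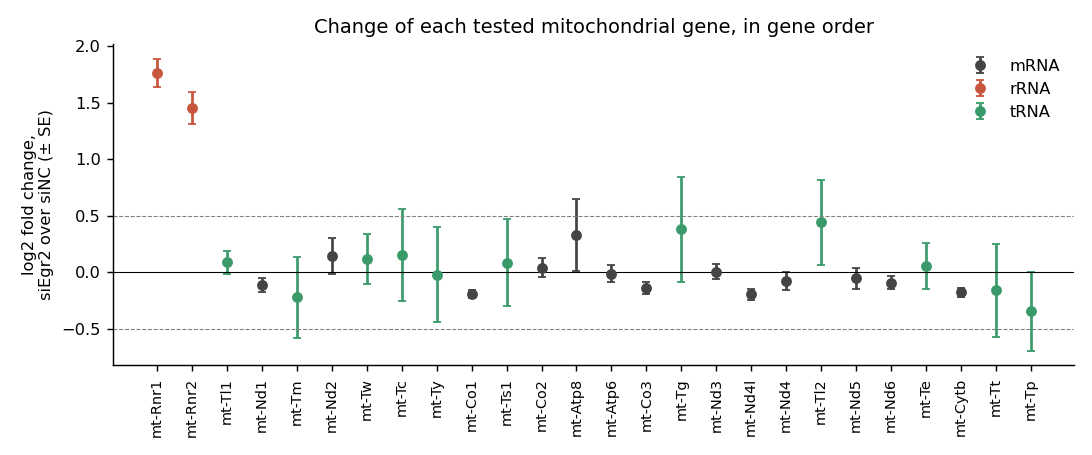
Log2 fold change of siEgr2 over siNC with its SE (edgeR, 6 libraries a group) for the 26 members that passed the filter on low counts, in the order of the genes along the chromosome and coloured by class. The dashed lines mark 0.5 in each direction. mt-Rnr1 and mt-Rnr2 are at 1.77 and 1.45, the mRNAs lie between -0.19 and 0.33, and the tRNAs between -0.34 and 0.44 with wide errors.

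Among the complex IV (cytochrome c oxidase) subunits, mt-Co1, the catalytic subunit that holds the haem and copper centre where oxygen is reduced, was the most abundant mitochondrial mRNA. It was at 10734, 11083 and 11569 CPM in siNC (lowest, median and highest) and 8729, 9737 and 10278 CPM in siEgr2. Every siEgr2 library was below every siNC library, with a log2 fold change of -0.19 (SE 0.035, edgeR adjusted p = 0.000974), or 12.4% lower, which is under the fold threshold. mt-Co2, which takes the electrons from cytochrome c, was at 1463 to 1900 CPM in siNC and 1470 to 1900 CPM in siEgr2 (0.043, edgeR adjusted p = 0.787). mt-Co3, a structural core subunit, was at 1254 to 1402 CPM and 1032 to 1335 CPM (-0.14, SE 0.052, edgeR adjusted p = 0.0808), and its adjusted p was 0.0313 without siEgr2 replicate 1.

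mt-Cytb, cytochrome b, is the only mitochondrially encoded subunit of complex III and carries its quinone sites. It was at 4297, 4395 and 4575 CPM in siNC (lowest, median and highest) and 3472, 3900 and 4242 CPM in siEgr2. The groups did not overlap, with a log2 fold change of -0.18 (SE 0.041, edgeR adjusted p = 0.00605), or 11.4% lower.

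The 7 complex I (NADH dehydrogenase) subunits had log2 fold changes from -0.19 to 0.15. mt-Nd4l, a small membrane subunit, was at 363, 397 and 423 CPM in siNC and 323, 340 and 378 CPM in siEgr2 (lowest, median and highest). It was lower by the adjusted p alone, with overlapping groups (-0.19, SE 0.048, edgeR adjusted p = 0.00808). mt-Nd2, mt-Nd4 and mt-Nd5, the antiporter-like subunits of the proton-pumping arm, were at 0.15, -0.076 and -0.051 with edgeR adjusted p-values of 0.583, 0.571 and 0.762. mt-Nd3 was at 153 to 190 CPM in siNC and 150 to 194 CPM in siEgr2, a log2 fold change of 0.0081 (edgeR adjusted p = 0.953).

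mt-Nd6, the complex I subunit and sole mRNA gene of the minus strand, was the least abundant of the mRNAs per length. It was at 123, 128 and 148 CPM in siNC and 113, 123 and 133 CPM in siEgr2 (lowest, median and highest), with a log2 fold change of -0.089 (SE 0.055, edgeR adjusted p = 0.294). Its counts were 0.0418 to 0.0644 of those of mt-Nd5, the mRNA facing it on the other strand, in siNC and 0.0455 to 0.0577 in siEgr2. The mean log2 ratio differed by -0.047 (two-sided exact permutation test, p = 0.688), so no difference in this ratio was detected with 6 libraries a group. Since the use of strand in counting is not given, the ratio does not compare the strands.

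For ATP synthase, mt-Atp6, which lines the proton channel, was at 1490, 1718 and 1940 CPM in siNC (lowest, median and highest) and 1473, 1693 and 1853 CPM in siEgr2. Its log2 fold change was -0.012 (SE 0.076, edgeR adjusted p = 0.939). mt-Atp8, a small subunit encoded just ahead of it, had the largest positive value of the mRNAs, 0.33, with the largest error (SE 0.32, edgeR adjusted p = 0.53). The siNC libraries spread from 143 to 464 CPM and enclosed all siEgr2 libraries, at 331 to 427 CPM.

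That spread came from siNC replicates 3, 4 and 6, which stood apart from replicates 1, 2 and 5 without any label that separates them. mt-Atp8 was at 143 to 186 CPM in replicates 3, 4 and 6 and 417 to 464 CPM in replicates 1, 2 and 5. Per count on mt-Atp6, it was 0.0960 to 0.122 in the former, 0.233 to 0.242 in the latter and 0.222 to 0.236 in siEgr2. In this ratio the siEgr2 libraries thus sat next to siNC replicates 1, 2 and 5. In the ratio of mt-Rnr2 to mt-Rnr1 they instead overlapped replicates 3, 4 and 6, at 1.84 to 2.17 beside 2.02 to 2.07. mt-Nd2 showed the same division, with 0.551 to 0.592 counts per mt-Nd1 count in replicates 3, 4 and 6, 0.809 to 0.839 in replicates 1, 2 and 5, and 0.774 to 0.985 in siEgr2.

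**Figure D3:**
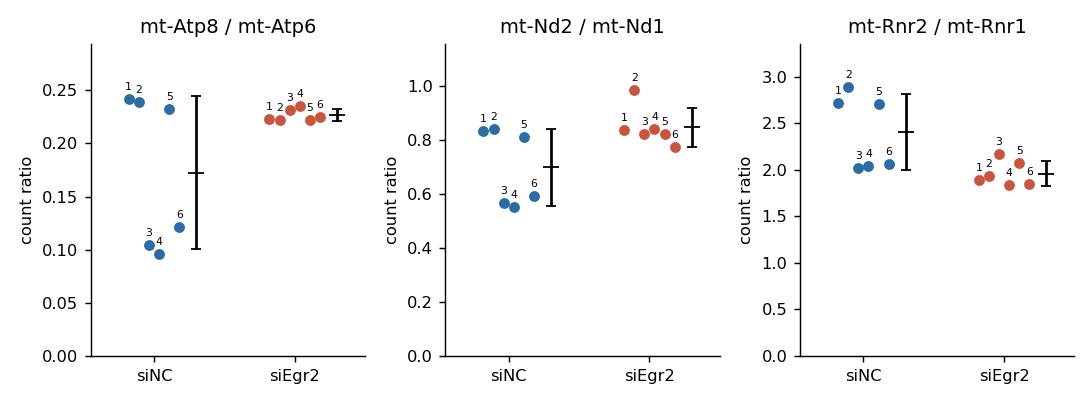
Count ratios of mt-Atp8 to mt-Atp6, mt-Nd2 to mt-Nd1 and mt-Rnr2 to mt-Rnr1 in each library (points, numbered by replicate) with the mean ± SD (n = 6) of each group. In all 3 ratios siNC replicates 3, 4 and 6 lie below replicates 1, 2 and 5, with no other siNC value between them. The siEgr2 values lie near replicates 1, 2 and 5 for mt-Atp8 to mt-Atp6 and mt-Nd2 to mt-Nd1. For mt-Rnr2 to mt-Rnr1 they lie near replicates 3, 4 and 6.

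In replicates 3, 4 and 6, 8 of the 13 mRNAs were below replicates 1, 2 and 5 without overlap, 0 were above and 5 overlapped. The 8 were mt-Nd2, mt-Co2, mt-Atp8, mt-Atp6, mt-Co3, mt-Nd3, mt-Nd4 and mt-Nd5, and the 5 were mt-Nd1, mt-Co1, mt-Nd4l, mt-Nd6 and mt-Cytb. The log2 difference between these libraries ran from -1.42 for mt-Atp8, the mRNA with most adenine (40.7% of its bases), to 0.050 for mt-Nd6, that with least (22.2%). Across the 13 mRNAs, which share the libraries, the difference had a Pearson's r of -0.81 with adenine content and 0.595 with GC content, given as a description. The rRNAs are not in this r. Their differences were -0.028 for mt-Rnr1, with 37.8% adenine, and -0.47 for mt-Rnr2, with 38.2%. Among all genes tested, 19.6% separated these libraries without overlap (1539 lower and 1720 higher in replicates 3, 4 and 6). Spread alone would separate some genes under any such division, and that share was not computed. No cause of the division was tested.

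Setting siEgr2 beside siNC replicates 1, 2 and 5 alone, an analysis chosen after these values were seen, moved several mRNAs. mt-Atp8 went from 0.33 to -0.22, mt-Nd2 from 0.15 to -0.15, mt-Nd4 from -0.076 to -0.22 and mt-Nd5 from -0.051 to -0.23. These are given with no test, because the libraries left out are those in which these mRNAs were low. mt-Co1 and mt-Cytb, whose values overlap between the siNC libraries, stayed at -0.19 and -0.18.

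Per kilobase of gene, the order of the mRNA levels was nearly shared by the groups. mt-Co1 led with 7177 ± 196 CPM per kb in siNC and 6289 ± 372 in siEgr2 (SD, n = 6), followed by mt-Cytb with 3850 ± 99.3 and 3410 ± 253. Neither overlapped the next gene in the order in either group. mt-Atp6, mt-Co2 and mt-Nd1 came next at 2317 to 2519 CPM per kb in siNC, where mt-Atp6 overlapped mt-Co2 and mt-Co2 overlapped mt-Nd1. From mt-Nd4 at 1811 ± 222 to mt-Nd4l at 1332 ± 78.1 CPM per kb in siNC, each of these 6 genes overlapped its neighbour among them in the order. mt-Atp8, of wide spread in siNC, ranked 9 of 13 there and 6 of 13 in siEgr2. mt-Nd3, at 491 ± 40.1, and mt-Nd6, at 253 ± 18.2, were last in both groups without overlapping a neighbour. This order depends on how reads shared with nuclear copies, described below, were counted. With the counts of each copy added to its gene, mt-Co1 still led and mt-Nd6 was still last of the mRNAs, but mt-Atp6, at 5132 ± 606 CPM per kb in siNC, and mt-Co2, at 4899 ± 620, passed mt-Cytb, and mt-Nd4l moved ahead of mt-Nd1.

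**Figure D4:**
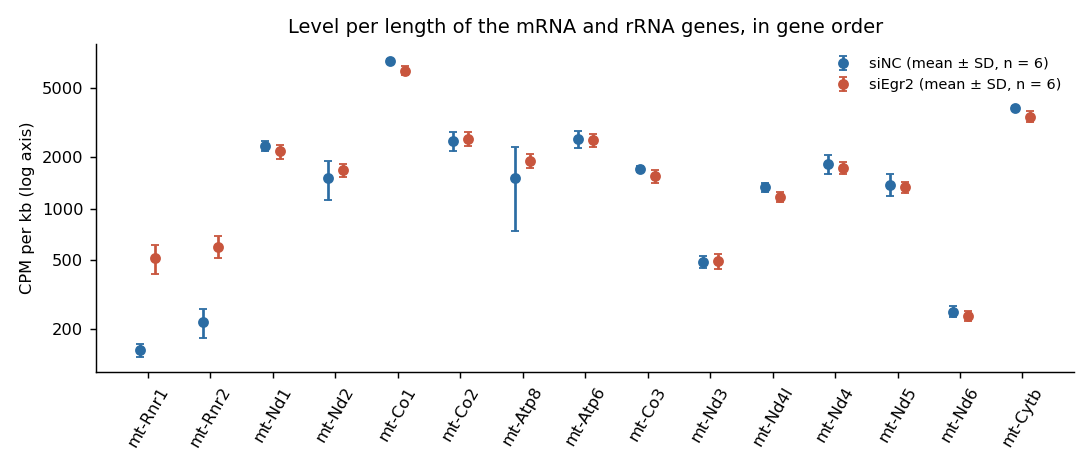
Level of each mitochondrial mRNA and rRNA gene in CPM per kb (log axis) in siNC and siEgr2, as the mean ± SD of 6 libraries, in the order of the genes along the chromosome. In siNC both rRNAs, at 151 and 220 CPM per kb, have means below every mRNA, and in siEgr2, at 514 and 602, means above those of mt-Nd3 and mt-Nd6.

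In these libraries the rRNAs were therefore scarce per length. mt-Rnr1 was at 151 CPM per kb and mt-Rnr2 at 220 CPM per kb in siNC, with means below those of all 13 mRNAs, and at 514 and 602 CPM per kb in siEgr2. By their means only mt-Nd3, at 494 CPM per kb, and mt-Nd6, at 237 CPM per kb, were then below them, and mt-Nd3 would be above both, at 983 CPM per kb, with its copy's counts added. The libraries of mt-Rnr2 and mt-Nd6 overlapped in siNC, and those of both rRNAs overlapped mt-Nd3 in siEgr2, so the order of these pairs does not exceed the spread. mt-Rnr1 in siNC, at 136 to 168 CPM per kb, lay below every library of mt-Nd6, at 237 to 284, and in siEgr2 both rRNAs, at 381 to 606 and 477 to 691, lay above mt-Nd6, at 217 to 256.

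Of the 22 tRNA genes, 11 passed the filter on low counts and none was called or passed at an unadjusted p under 0.05 (edgeR). With 7.72% of all genes called, a count of 0 among so few genes is near the background. Their log2 fold changes ran from -0.34 for mt-Tp (tRNA-Pro, SE 0.35) to 0.44 for mt-Tl2 (the second leucine tRNA, SE 0.37), and 7 were positive. A library held only 205 to 980 tRNA counts in all, and the SE of 8 of these 11 genes was between 0.35 and 0.47, so that small changes were not detectable.

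mt-Tl1, whose sequence is given above, held 61.0% of all tRNA counts, with 456 to 599 counts in the siNC libraries and 121 to 299 in the siEgr2 libraries. mt-Te had 53 to 77 and 18 to 31 counts, and mt-Tw 47 to 76 and 14 to 35, with log2 fold changes of 0.055 (SE 0.20, edgeR adjusted p = 0.884) and 0.12 (SE 0.22, edgeR adjusted p = 0.761). These 3 genes have the smallest errors of the class. Per length, mt-Tl1 was at 210 CPM per kb in siNC, close to the 220 of mt-Rnr2 ahead of it and far under the 2317 of mt-Nd1 behind it. In siEgr2 it was at 223 CPM per kb, beside 602 for mt-Rnr2 and 2142 for mt-Nd1.

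The other tested tRNA genes, mt-Tm (Met), mt-Tc (Cys), mt-Ty (Tyr), mt-Ts1 (a serine tRNA), mt-Tg (Gly), mt-Tl2, mt-Tt (Thr) and mt-Tp, had 2 to 58 counts a library. The 11 that were not tested never exceeded 13 counts in any library. mt-Tf and mt-Tv, printed above and next to the rRNAs that rose, had 26 and 24 counts summed over siNC and 12 and 10 over siEgr2. mt-Ti (Ile), mt-Tq (Gln), mt-Ta (Ala), mt-Tn (Asn), mt-Td (Asp), mt-Tk (Lys), mt-Tr (Arg), mt-Th (His) and mt-Ts2 (the other serine tRNA) made up the rest, and mt-Ts2 never exceeded 1 count. Differences in these genes were not detectable at this depth.

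Part of the mRNA counts also stood under the name of nuclear genes. A stretch of nuclear chromosome 1 (chr1:24611535-24616197, minus strand, build GRCm38) carries 7 annotated copies of mitochondrial mRNA genes, which are inserted mitochondrial DNA. Of these, 5 had no base difference from the mitochondrial gene over their length, Gm28438 differed from mt-Nd3 at 1 base and Gm29216 from mt-Co1 at 6. The 6, written as the base of mt-Co1, its position from the first base of mt-Co1 and the base of the copy, were T1056A, C1057T, A1059G, A1060G, C1062A and A1066T, all near the start of the stretch the copy covers.

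The counts of the full-length copies followed those of their mitochondrial genes in every library. Gm10222 had 0.992 to 0.998 times the counts of mt-Nd4l, Gm28437 0.993 to 1.0 times those of mt-Co3, Gm28661 0.989 to 1.0 times those of mt-Co2, and Gm28438 0.985 to 0.998 times those of mt-Nd3. Gm28439, which covers 63.6% of mt-Nd4, had 0.325 to 0.421 times its counts, and Gm29216, which covers 31.8% of mt-Co1, 0.122 to 0.130 times. Whether reads of identical sequence were counted under both names or divided between them is not given in the sources used here. The copies are therefore no independent measurement, and their counts were 0.585% to 0.914% of a library. Levels per kb of the mitochondrial genes that have a copy are uncertain. mt-Atp8, mt-Ts1, mt-Td, mt-Tk, mt-Tg and mt-Tr lie between genes with a copy but have no annotated copy. Whether the nuclear stretch carries their sequence too was not examined, so their counts may also be affected.

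**Figure D5:**
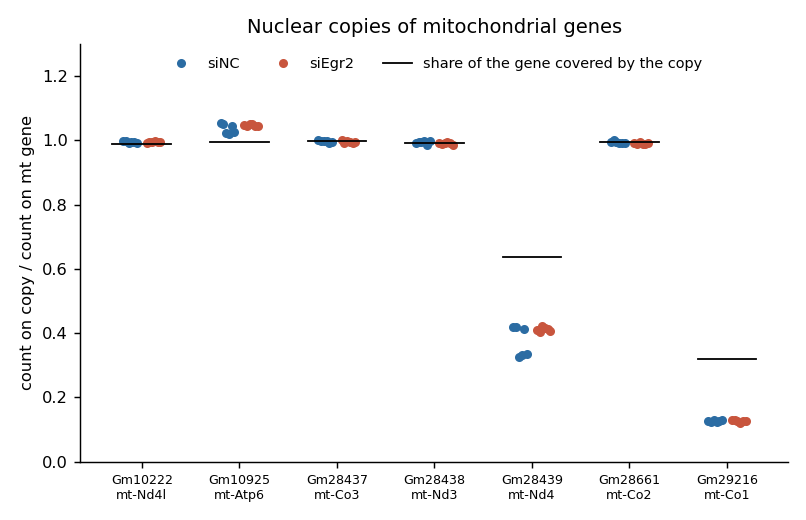
Counts on each nuclear copy divided by those on the mitochondrial gene named under it, in the 6 siNC and 6 siEgr2 libraries (points). Horizontal lines give the share of the gene's length that the copy covers. The 5 nearly full-length copies lie between 0.985 and 1.05, Gm28439 and Gm29216 below their lines.

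Gm10925 alone had more counts than its gene in every library, 1.02 to 1.05 times those of mt-Atp6. The excess equalled 19.4% to 22.2% of the mt-Atp8 counts in each of the 12 libraries, siNC replicates 3, 4 and 6 included, and the shared bases make up 21.1% of mt-Atp8. mt-Atp6 begins within the 43 bases that it shares with mt-Atp8, the capitals in the sequence above, whereas no copy of mt-Atp8 is annotated at the nuclear locus. How reads in that overlap were assigned is not given in the sources used here, and counts of mt-Atp8 and mt-Atp6 are uncertain to that extent. With the 7 copies left out of the table, mt-Rnr1 and mt-Rnr2 were higher by 1.77 and 1.45 on the log2 scale, as with them. Leaving them out reassigned no read, and no annotated copy covers an rRNA gene. This run therefore cannot show how shared reads affect the results.

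Nuclear genes that make and process mitochondrial RNA were examined as a list. Of 44 such genes, all tested, 1 was called higher and 0 lower, with a median log2 fold change of -0.0029, where 2.63% of all genes were called higher and 5.08% lower. The count of higher genes is thus near the background. The gene called was Fastkd3, a member of the FASTK family of mitochondrial RNA-binding proteins, at 6.77 ± 1.70 CPM in siNC and 9.68 ± 1.62 CPM in siEgr2 (0.51, SE 0.17, edgeR adjusted p = 0.0438, n = 6). The groups overlapped, and the list had 0 calls when any of siNC replicates 1, 2, 3 and 4 or siEgr2 replicates 1, 3, 4, 5 and 6 was left out. By the adjusted p alone, Trmu, which thiolates mitochondrial tRNAs, was higher (0.36, edgeR adjusted p = 0.0177). Tfb2m, the transcription initiation factor that opens the promoter, and Rexo2, which degrades short RNA fragments, were lower (-0.42 and -0.18, edgeR adjusted p = 0.0305 and 0.0383).

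The other central members of that list did not pass the test. Polrmt, the mitochondrial RNA polymerase, was at 27.7 ± 1.78 CPM in siNC and 26.9 ± 1.81 CPM in siEgr2 (-0.039), and Tfam, which packages the genome and starts transcription, at 35.6 ± 1.71 and 37.6 ± 6.46 CPM (0.083). Mterf1a, a mouse copy of the termination factor named above, was at 4.10 ± 0.776 and 4.19 ± 0.821 CPM (0.034). Lrpprc and Slirp, partners that stabilise the mRNAs, were at -0.14 and 0.029, the poly(A) polymerase Mtpap at -0.0032 and the tRNA-cutting enzyme Elac2 at 0.13, each with an edgeR adjusted p of 0.168 or more.

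The nuclear subunits that assemble with the mitochondrial proteins also changed little, with the lowest median for complex III. None of 38 tested nuclear subunits of complex I, 9 of complex III, 12 of complex IV and 15 of ATP synthase was called, with median log2 fold changes of -0.0100, -0.12, 0.0048 and -0.046, where 7.72% of all genes were called. By the adjusted p alone, which 8.57% of all genes passed as higher and 11.3% as lower, Ndufb5 of complex I was higher (0.33, edgeR adjusted p = 0.0070), and Ndufs1 of complex I (-0.21), Uqcrc1 of complex III (-0.16) and Atp5b and Atp5g3 of ATP synthase (-0.16 and -0.13) were lower. Of 78 nuclear proteins of the mitochondrial ribosome, the partners of the rRNAs, 2 were called higher, Mrpl53 at 0.82 and Mrpl58 at 0.54 (edgeR adjusted p = 0.0214 and 0.00338), a share near the 2.63% of all genes called higher. Mrps15 and Mrpl51 were lower by the adjusted p alone (-0.26 and -0.23, edgeR adjusted p = 0.0297 and 0.0209). The median over the 78 was -0.023.

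Lists for mitochondrial content were read against 7.72% of all genes called, and 11.3% lower and 8.57% higher by the adjusted p alone. Of 20 tested genes for abundant proteins of the organelle 0 were called, with 5 lower and 1 higher by the adjusted p alone. Among them, citrate synthase (Cs), often used as a measure of mitochondrial mass, was at 400 ± 13.4 CPM in siNC and 345 ± 20.7 CPM in siEgr2 (-0.21, SE 0.040, edgeR adjusted p = 0.00131). Of 21 genes for maintenance of the mitochondrial genome and of 10 tested genes for mitophagy none was called. Of 10 regulators of mitochondrial biogenesis 1 was called, Ppargc1a, the coactivator PGC-1 alpha, which fell from 23.4 ± 3.09 to 15.1 ± 1.01 CPM (-0.63, SE 0.094, edgeR adjusted p = 0.00017). Nrf1, a transcription factor for nuclear mitochondrial genes, was higher by the adjusted p alone (0.48, edgeR adjusted p = 0.0183). The fall of the astrocyte markers stood beside these small differences and those of mt-Co1 and mt-Cytb, and its part in them was not tested.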

How the data were processed

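Total RNA of cultured OLs was extracted with TRIzol and sequenced by the authors with 50-base reads. The deposited table holds raw read counts per gene and library, not normalized. The submitters' processing notes name build mm10. The aligner, the counter, the treatment of strand and of reads that map to several places, and the selection or depletion of RNA are not given in the sources used here. The paper describes the reagent both as siRNA and as an interfering plasmid. A blank row held 0 counts and was left out. No 2 libraries of a group agreed within counting noise.

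Counts were tested with edgeR 4.0.16 (R 4.3.3) by the quasi-likelihood test with robust dispersions, TMM scaling, filterByExpr and Benjamini-Hochberg adjustment over 16600 genes, without covariates. Calls used the study's thresholds, 0.05 for the adjusted p and 0.5 for the size of the log2 fold change. Named were all members, the RNAs without a poly(A) tail, Egr2, Polrmt, Tfam, Tfb2m, Lrpprc, Slirp, Mtpap and Elac2, and, of each list, genes called. Genes of the lists passing by the adjusted p alone, Mterf1a and Cs were named after their values were seen. The members and lists were chosen with earlier results of these data known. On simulated data 168 of 192 changed genes were recovered. Ratios were compared by two-sided exact permutation over all assignments of the libraries (scipy). Copies were aligned with edlib to GENCODE M21 transcripts (GRCm38). DESeq2 1.42.0, limma 3.58.1, other scalings and filters, thinning to the smallest library total (which leaves the unequal share of Rn18s-rs5 as it was), a replicate block and each library left out were alternatives. Leaving out siNC replicates 3, 4 and 6, leaving out the nuclear copies and adding their counts to their genes were chosen after seeing the data. A count of 0 in a library allows up to 3 counts, and ranges of counts cover counting error only.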

Additional observations from a re-analysis of the deposited data

How the results depend on the processing

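Both rRNA calls held under every alternative run, with log2 fold changes of 1.58 to 1.84 for mt-Rnr1 and 1.23 to 1.53 for mt-Rnr2, and 0 mRNAs and 0 tRNAs were called under any. The 1.23 came from leaving out siNC replicates 3, 4 and 6, in which mt-Rnr2 was low, so that run is no evidence of its own. The mRNAs lower by the adjusted p alone numbered 3 to 4 with a library left out, 7 with library size as the only scaling, which moved the median of all genes to -0.18, and 5 without siNC replicates 3, 4 and 6, a count that is no evidence of its own since several mRNAs were low in the libraries left out. Machinery genes called numbered 0 under limma-voom, without a filter, after thinning and without siNC replicates 3, 4 and 6, and 0 to 1 with a library left out. Replicate numbers did not pair the libraries (correlation of same-numbered deviations -0.050 to 0.069 over 12400 genes). With the replicate block 1124 genes were called instead of 1281, mt-Co3 passed the adjusted p (-0.14, 0.0181), and the ratio of mt-Rnr1 to mt-Rnr2 no longer passed (0.28, exact sign-flip p = 0.0625). That ratio ranged from 0.227 to 0.331 with a library left out.

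Signs turned only for values that passed no test. With library size alone mt-Nd2 was -0.034, mt-Co2 -0.14, mt-Nd3 -0.17, mt-Tl1 -0.093, mt-Tw -0.063, mt-Tc -0.024, mt-Ts1 -0.097 and mt-Te -0.13. Without siNC replicates 3, 4 and 6 mt-Nd2 was -0.15, mt-Co2 -0.12, mt-Atp8 -0.22, mt-Nd3 -0.087, mt-Tm 0.0056, mt-Tw -0.066, mt-Tg -0.16, mt-Te -0.13 and mt-Tp 0.068, and the log2 ratio of mt-Nd6 to mt-Nd5 0.16. Without a filter mt-Co2 was -0.00060 and mt-Nd3 -0.035. mt-Atp6 was 0.00027 when scaled without mitochondrial and untailed genes and 0.0023 in limma-voom. With a library left out the ranges were -0.048 to 0.028 for mt-Atp6, -0.034 to 0.042 for mt-Nd3, -0.10 to 0.0017 for mt-Nd5, -0.077 to 0.31 for mt-Tc, -0.27 to 0.15 for mt-Ty, -0.039 to 0.18 for mt-Ts1 and -0.11 to 0.011 for the ratio of mt-Nd6 to mt-Nd5. With other genes as denominator, the difference in share (siEgr2 minus siNC, percentage points) went from -0.58 to -0.20 for the mRNAs, from 0.0826 to 0.107 for the rRNAs and from -0.00015 to 0.00025 for the tRNAs. Causes were not tested. tRNA genes rested on 205 to 980 counts a library in all.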
